A study of Mus musculus with 2 samples.

Results

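The regions described here are 180 stretches of chromatin that were called as peaks with the even set of capture probes against the long non-coding RNA *Gm19619*, that shared no base with any peak of the odd set, and whose summit lay within 1000 bp of a transcription start of a protein-coding gene. They were chosen by these measured calls from the 3637 even peaks, of which 2914 on chromosomes 1 to 19 had no overlap with the odd list, and from 17898 peaks in both lists together. Chromatin isolation by RNA purification (ChIRP) was done on primary hepatocytes pooled from 4 female wild-type C57BL/6 mice aged 8 weeks, fixed in 3% formaldehyde for 10 min. Of 14 DNA probes antisense to *Gm19619*, the 7 even-numbered and the 7 odd-numbered ones were used in separate pulldowns. Each set gave 1 sequencing library, so no value below has a replicate, no test between groups was possible, and intervals are 95% Wilson intervals that cover counting error only. No library without probes or without the RNA was used here.

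In ChIRP, biotinylated probes that pair with an RNA are used to pull down that RNA together with the chromatin fixed to it. Probes can also pair directly with DNA that carries part of their own sequence or its complement. For this reason they are commonly split into 2 sets, and regions found with both are kept. A promoter is the stretch around a transcription start where RNA polymerase and general factors assemble. In mammals many promoters are rich in the dinucleotide CpG and are open in most cells, while others are poor in CpG and tend to be active in few tissues. Hepatocytes make plasma proteins, glucose and lipids and break down foreign compounds.

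The even library held 65783155 reads, of which 7052802 (10.7%) were left after duplicates were removed, and the odd library 61155168, of which 6972538 (11.4%) were left. The odd list was longer, with 14261 peaks. Height is given as the pileup, the number of extended reads stacked at the summit, and as the peak caller's fold enrichment, which in the even list was the pileup plus 1 read over a background of 0.522 reads plus 1 read, so that 1 more read added 0.657 to it. The lowest pileup in either list was 5. A peak missing from the odd list was one that was not called there. The reads under it were not in the files used.

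The sequences under the peaks are given first, because many of them carried part of an even probe. A run here is 12 or more bases in a row of a probe, or of its complement, inside a peak. Probes 5, 10 and 12 were read with 19 bases, and beside the RNA sequence printed in the paper each lacks a base. All runs and matches were counted with the letters as read. Some runs of these probes are therefore missed, cut short or wrongly counted. Of the 180 regions, 57 (31.7%, interval 25.3 to 38.8) held a run of an even probe and 0 held a run of an odd probe (upper limit 2.09% by the Wilson interval). The 57 include the runs at *Dedd2* and *4930453N24Rik*, which are broken when the missing base of probe 10 or 12 is put back. The rule left out even peaks that overlap an odd peak, which may lower the odd-probe count. The stretches below were read from the mouse genome GRCm38.p6 (mm10) of RefSeq, 5′ to 3′ on the strand that reads like the probe, with the bases identical to the probe in capitals. The first set shows runs that begin at base 1 or 2 of probe 2, the commonest kind.

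Slc22a27, chr19:7966003-7966032, minus strand: agccaGACACTGAGCCCtgtgtggatggat
Gpam, chr19:55103550-55103589, minus strand: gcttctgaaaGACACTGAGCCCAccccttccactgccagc
Fam47e, chr5:92571530-92571559, minus strand: gaagtGACACTGAGCCCAggcccagaagag
Nucks1, chr1:131911242-131911281, plus strand: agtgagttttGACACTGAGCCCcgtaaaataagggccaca
Mvd, chr8:122443537-122443576, plus strand: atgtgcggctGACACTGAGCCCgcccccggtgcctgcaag
Dnase2b, chr3:146614818-146614857, plus strand: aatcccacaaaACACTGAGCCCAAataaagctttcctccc

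The second set holds the runs of 14 to 16 bases found with the letters as read, and a 13-base run of probe 14 at *Camta1* as an example of that probe. With the missing base of probe 12 put back, the runs at *Ap2m1*, *Cfap70* and *4921504E06Rik* would also reach 14 bases or more. The runs at *Zfp383*, *Smyd3* and the 3 vomeronasal receptor genes were of probe 4, the run at *Jmjd1c* was of probe 6 and the run at *Prr14l* of probe 2. The 14-base run at *Dedd2* is left out, because it was found with letters of probe 10 that lack a base and is not in the annotated *Gm19619* RNA. Of the 57 runs, 55 were also in that RNA, all but those at *Dedd2* and *4930453N24Rik* (probe 12). The probes were made against this RNA, so this follows from their design and checks only the letters as read.

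Zfp383, chr7:29908763-29908802, minus strand: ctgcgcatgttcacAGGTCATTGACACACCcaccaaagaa
Vmn1r89, chr7:13213139-13213168, plus strand: caataaaCAAGGTCATTGACACcatggtag
Vmn1r86, chr7:13119781-13119810, minus strand: cagtaaaCAAGGTCATTGACACcatgggag
Vmn1r88, chr7:13159603-13159632, plus strand: caataaaCAAGGTCATTGACACcatgggag
Jmjd1c, chr10:67095880-67095919, plus strand: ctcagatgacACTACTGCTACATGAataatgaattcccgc
Prr14l, chr5:32795288-32795327, plus strand: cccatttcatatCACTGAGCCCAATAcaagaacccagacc
Smyd3, chr1:179249296-179249335, plus strand: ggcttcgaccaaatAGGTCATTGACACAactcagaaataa
Camta1, chr4:151079557-151079596, plus strand: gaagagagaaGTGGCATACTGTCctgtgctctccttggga

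The third set is the DNA at the summit of 3 tall peaks with no run of 10 or more even-probe bases, shown for contrast on the plus strand.

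Tars2, chr3:95754546-95754605, plus strand: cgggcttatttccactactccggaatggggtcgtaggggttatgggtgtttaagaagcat
Tef, chr15:81810571-81810630, plus strand: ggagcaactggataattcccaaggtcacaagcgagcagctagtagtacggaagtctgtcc
Mecom, chr3:30509824-30509883, plus strand: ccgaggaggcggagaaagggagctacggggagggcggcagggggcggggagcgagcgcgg

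The label was checked against the annotation first. All 180 summits lay within 1000 bp of the start of some GENCODE vM21 transcript of a protein-coding gene, as the rule asked, but that transcript was often a short or non-coding form of the gene. For 135 regions (75%, interval 68.2 to 80.8) a start of a transcript typed as protein-coding was within the same distance. For 88 regions (48.9%, interval 41.7 to 56.1) the gene's own 5′ end was that close. *Gpam*, whose mitochondrial acyltransferase makes the first step of triglyceride synthesis, shows the difference: the summit lay 510 bp upstream of an annotated start but 23637 bp from the 5′ end of the gene. *Mecom*, a zinc finger transcription factor gene, had its summit 32 bp upstream of a start and 38154 bp from its 5′ end, and *Tef*, a clock-controlled transcription factor gene, 445 bp upstream and 8180 bp away. At *Slc22a27*, a gene of the organic anion transporter family, the summit was 90 bp upstream of the 5′ end itself.

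Summits were spread on both sides of the start, with 93 of 180 upstream (51.7%, interval 44.4 to 58.9) and a median position 35 bp upstream, with quartiles at -388 and 391 bp relative to the start. Within 200 bp of a start were 51 summits and within 500 bp 106. The closest was at *Abhd14b*, an alpha/beta hydrolase gene, 5 bp upstream of a start, with a pileup of 18. Near the limit of 1000 bp, the members just inside were at *Sp140* (920 bp, fold enrichment 5.25), *Mphosph9* (931 bp, 6.57), *Smcp* (963 bp, 6.57), *Cln6* (973 bp, 4.60) and *Coq8a* (989 bp, 7.88). The peaks just outside were at *C130026I21Rik* (1033 bp, 5.25), *Pikfyve* (1037 bp, 7.23), *Rchy1* (1047 bp, 6.57), *Lipa* (1048 bp, 7.23) and *Exph5* (1049 bp, 11.8). These heights ran together across the limit.

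**Figure D1:**
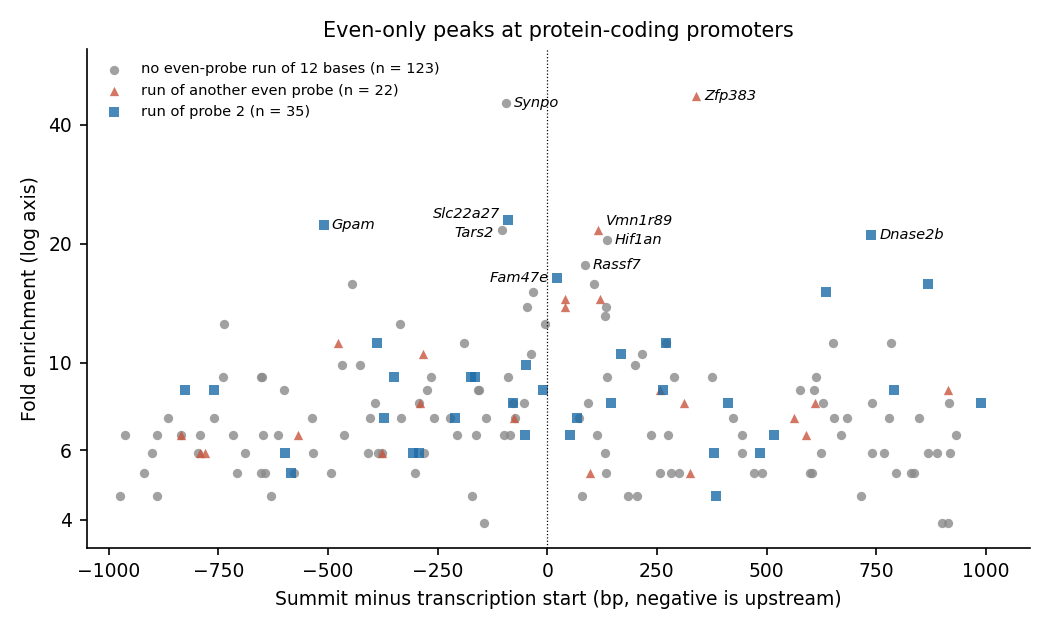
Each of the 180 even-only peaks at protein-coding promoters is 1 point, placed by its summit relative to the nearest annotated start (bp, horizontal) and its fold enrichment (log axis, vertical), with the 10 tallest named. Squares are the 35 peaks with a run of 12 or more bases of probe 2, triangles the 22 with a run of another even probe and circles the 123 without, by the probe letters as read. All 3 kinds are found on both sides of the start.

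The promoter stretches covered 94.3 Mb, 3.93% of the autosomal sequence, and held 6.18% of the even-only peaks. Even-only peaks were thus found at 1.91 per Mb there against 1.19 per Mb elsewhere, a ratio of 1.61. Odd-only peaks were found at 11.5 per Mb at promoters against 5.22 per Mb elsewhere, a ratio of 2.2. The excess at promoters was therefore in both lists, and whether the ratios differ beyond library effects was not tested.

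The heights were those by which the peaks were called and are given as a description. The pileup ran from 5 to 71 with a median of 10 (quartiles 8 and 13), and the fold enrichment from 3.94 to 47.3 with a median of 7.23 (interval of the median 6.57 to 7.88). A pileup of 8 or fewer was found in 57 regions, and a fold enrichment of 10 or more in 35 (19.4%). The 2734 even-only peaks away from promoters had a median fold enrichment of 6.57 and the 44 shared even peaks at promoters 7.88. The 1085 odd-only peaks at promoters had 8.57 in their own library, whose pileup is not scaled to the even one.

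The tallest region was at *Zfp383*, a zinc finger gene (chr7:29908434-29909473), with a pileup of 71, a fold enrichment of 47.3 and a summit 340 bp downstream of a start. It was also the region with the longest run, 16 bases of probe 4. *Synpo*, the actin-associated protein synaptopodin, came next with a pileup of 68 and a fold enrichment of 45.3, 95 bp upstream of its start, and held 11 bases of probe 12. That match began at base 4 of the letters as read, beside the missing base. Whether it is longer against the full probe was not tested. The distance to the next region was large: *Slc22a27* had a pileup of 34 (fold enrichment 23.0).

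Below these 3 stood *Gpam* with a pileup of 33 and a 13-base run of probe 2, *Vmn1r89*, a vomeronasal pheromone receptor gene, with 32 and a 15-base run of probe 4, and *Dnase2b*, an acid DNase gene, with 31 and a 13-base run of probe 2. *Fam47e* followed with 24 and a 13-base run of probe 2. Besides *Synpo*, 3 of the 10 tallest held no run of 12 by the letters as read. *Tars2*, the mitochondrial threonyl-tRNA synthetase, had a pileup of 32 and no run of 10 of either set. *Hif1an*, the asparaginyl hydroxylase that acts on hypoxia-inducible factor, had 30 and 11 bases of probe 8. *Rassf7*, a Ras-association domain gene, had 26, no run of 10 even-probe bases and a run of 10 bases of the odd probe 9. Of the 10 tallest regions 6 thus held a run by the letters as read.

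At the low end, 3 regions had a fold enrichment of 3.94, at *Mroh2a*, *Frmd8* and *Cntn3*, and a further 9 had 4.60, among them *Trpm8*, the cold-sensing ion channel gene, and *Plg*, the liver gene for plasminogen. A pileup of 5 or 6 extended reads was at or next to the lowest in the list.

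Runs of even-probe bases were far commoner than in promoter DNA at large. When the promoter stretches were cut into 372002 windows of 246 bp, the median length of these regions, 0.163% of the windows held an even-probe run and 0.231% an odd-probe run, against 31.7% and 0 of 180 here. The even-only peaks away from promoters had a close share, 28.7% (interval 27.0 to 30.4) for even and 0.183% for odd probes. At the 1085 odd-only promoter peaks the picture was turned round, with 25.2% (interval 22.7 to 27.8) holding an odd-probe run and 0.184% an even-probe run. The 44 promoter peaks shared by both libraries held an odd-probe run in 9 cases (20.5%) and an even-probe run in 1 (2.27%). Peaks that overlap the other list were left out of both only-lists, so the low shares of the other set's runs are partly set by the choice. The upper limit for 0 of 180, 2.09%, also lies above the 0.231% of windows.

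The result depended on the length asked for. With 10 bases, 48.9% of the regions held an even-probe run and 6.67% an odd-probe run, where promoter windows had 2.94% and 3.92%. With 13 bases the even share was 14.4%, with 14 bases 4.44% and with 15 bases 2.78%, against 0.0363%, 0.00753% and 0.00242% of windows. The odd-probe share at 10 bases was near that of promoter windows (interval 3.85 to 11.3).

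**Figure D2:**
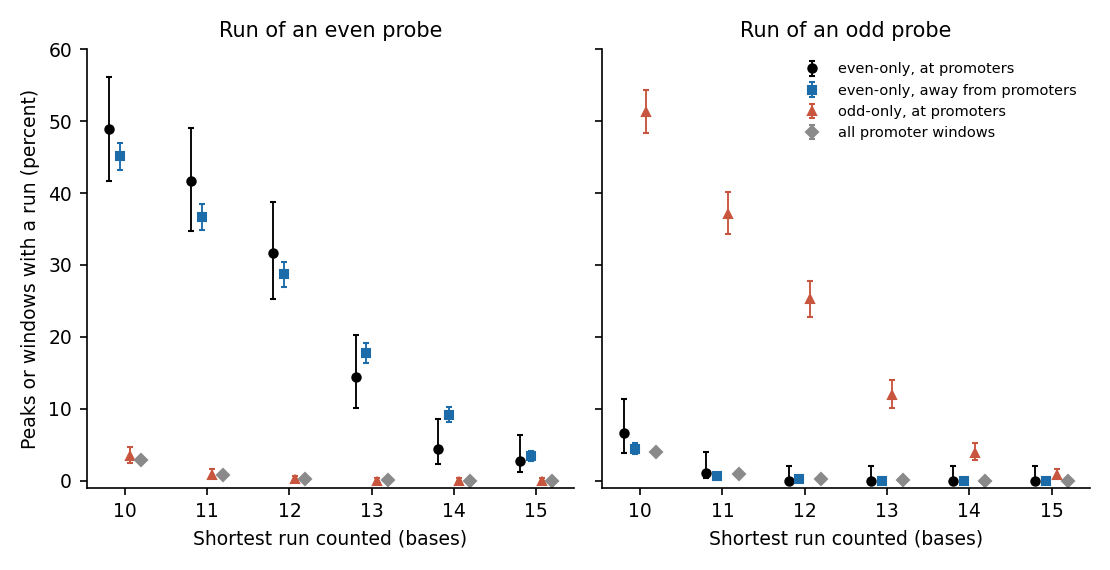
Percent of peaks or windows that hold a run of an even probe (left) or an odd probe (right), for shortest runs of 10 to 15 bases, with 95% Wilson intervals. Even-only promoter peaks (circles) and even-only peaks elsewhere (squares) hold even-probe runs, 31.7% and 28.7% at 12 bases, odd-only promoter peaks (triangles) hold odd-probe runs, 25.2%, and promoter windows at large (diamonds) hold few of either.

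The runs were not spread evenly over the 7 probes. Probe 2 gave 35 of the 57, probe 4 gave 9, probes 12 and 14 gave 5 each, and probes 6, 8 and 10 gave 1 each. The letters used for probes 10 and 12 lack a base and have no exact site in the annotated RNA, so their counts are not those of the full probes. *Synpo*, *Fbxo40*, *Psg27*, *Sh3tc1* and *Sds* held 11 bases of probe 12 from base 4 of the letters as read. *Smim8*, *Olfr157*, *Gprc5b* and *Myo15b* held 10 from the same base. These regions were counted as having no run, and whether the full probe gives one was not tested. Of the 35 runs of probe 2, 24 (68.6%, interval 52.0 to 81.4) began at the first base of the probe, that is, at its 5′ end. These 24 regions therefore share the 12-base word

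Shared word: GACACTGAGCCC

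which is at 481 places on the autosomes and 35 places at promoters. It was in 13.3% of the regions (interval 9.13 to 19.1), on either strand, and in 32 of the 372002 promoter windows (0.0086%). Beside most of the first set above they included *C1s1* and *C1s2*, paralogous genes for a complement serine protease (pileup 23 and 10), *Mvd*, of the mevalonate pathway to cholesterol (11), *Prmt3*, an arginine methyltransferase gene (14), and *Stx11*, a syntaxin gene (16). These genes were picked from the 24 after their values were seen. Exact stretches of 30 bases were shared by *C1s1* and *C1s2*, by *Slc22a27* and *Slc22a29*, and by *Pcdhgb6* and *Pcdhgb7*, so the 24 are not all independent. Probe 2 had an exact site in spliced *Gm19619* as GENCODE models it (3201 bases of annotated sequence) but 11 bases in a row in the gene's DNA, since the site spans an exon junction of that model. The paper reports a single, shorter form in mouse liver, whose printed sequence also holds the site.

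Seen from the DNA, the end of probe 2 that was matched went with the share of sites that lay in an even peak. Of the sites within 1000 bp of a start, 25 of 35 were in an even peak (71.4%, interval 54.9 to 83.7) when the run began at base 1, 10 of 51 (19.6%, 11 to 32.5) when it began at base 2 or 3, and 1 of 34 (2.94%, 0.521 to 14.9) when it began further in. Away from promoters the shares were 62.3% (278 of 446), 24.2% and 3.15%. Among runs of exactly 12 bases, where length plays no part, those from base 1 were in a peak at 18 of 26 promoter sites (69.2%, 50 to 83.5) and at 49.8% of sites elsewhere, and those from base 2 at 3 of 30 (10.0%, 3.46 to 25.6) and 16.3%. These sites come from 1 library, and what lies behind the order was not tested.

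**Figure D3:**
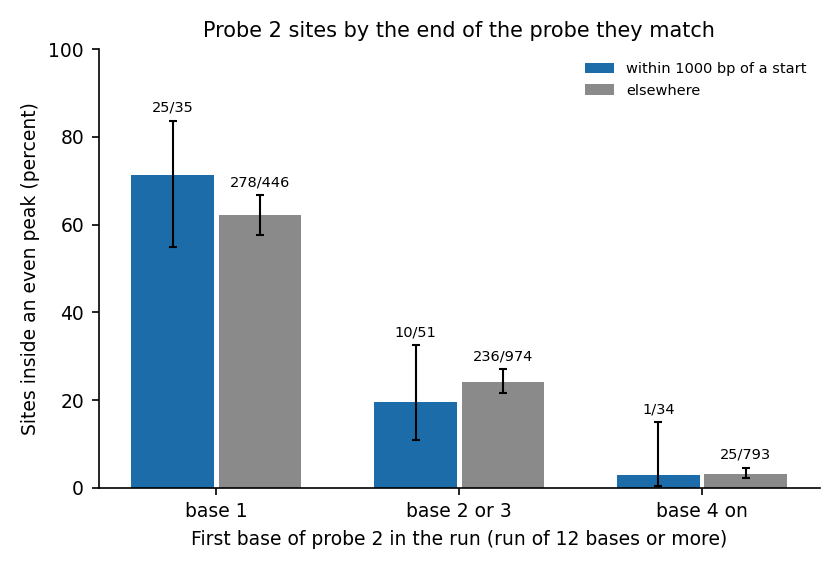
Percent of probe 2 sites (runs of 12 or more bases) that lie inside an even peak, by the first base of the probe in the run, within 1000 bp of a protein-coding start (blue) and elsewhere (grey), with 95% Wilson intervals and counts above the bars. The share falls from 71.4% to 19.6% to 2.94% at promoters as the run begins further from base 1.

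Most even-probe sites at promoters were not in a peak. Of 654 such sites of 12 or more bases, 59 were (9.02%, interval 7.06 to 11.5), while away from promoters 856 of 17108 were (5%, 4.69 to 5.34). For runs of exactly 12 bases the shares were 6.15% (4.37 to 8.60) and 2.68% (2.41 to 2.96), and for 13 bases 16.1% (10.6 to 23.8) and 8.26% (7.32 to 9.32). For runs of 14 bases or more the promoter share was 28.1% (9 of 32, 15.6 to 45.4) and did not exceed the 29.8% elsewhere. In odd peaks were 3 of the 654 sites (0.459%). The odd probes showed the same ordering in their own list, with 30.8% of 942 promoter sites and 18.8% of the other sites in an odd peak.

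By probe, the promoter share was 30% for probe 2 (36 of 120), 9.52% for probe 14 (6 of 63), 5.62% for probe 12 (5 of 89) and 5.39% for probe 4 (9 of 167), but 0.746% for probe 6 (1 of 134). The 1 promoter site of probe 6 in a peak was the 15-base run at *Jmjd1c*, a gene of the JmjC domain family. For the even probes other than probe 2 the pooled share was 4.31% at promoters (23 of 534, 2.89 to 6.38) and 2.13% elsewhere (1.91 to 2.37).

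**Figure D4:**
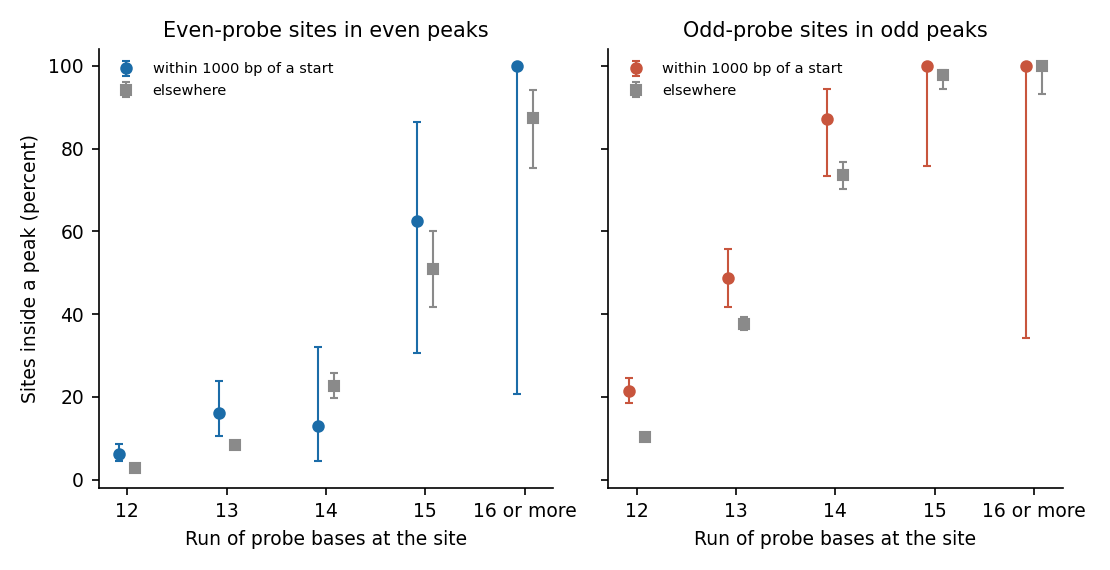
Percent of probe sites that lie inside a peak of the same library, by the number of probe bases in a row at the site, for even probes (left) and odd probes (right), within 1000 bp of a start (colour) and elsewhere (grey), with 95% Wilson intervals. For even probes the promoter points lie above the others at 12 and 13 bases, 6.15% against 2.68% and 16.1% against 8.26%, and their intervals overlap with those elsewhere from 14 bases on.

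The place of the runs in the peaks was not used by the rule. The middle of the run lay a median of 64 bp from the summit (range 4 to 178) and within 100 bp in 42 of 57 regions (73.7%). The summit fell inside the run itself in 4. In the odd-only promoter peaks with an odd-probe run the median was also 64 bp, and in the other even-only peaks with a run 46 bp. At *Rnf114* run and summit were 4 bp apart and at *Itgax* 178 bp, the closest and the farthest. Runs were found downstream of the start in 31 regions and upstream in 26. Where they were downstream the probe was complementary to the transcript in 17 of 31 and read like the transcript in the rest, and upstream it was complementary to the transcript strand in 15 of 26, so neither orientation prevailed within counting error.

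Regions with a run had a median fold enrichment of 7.88 (range 4.60 to 47.3, n = 57) and regions without one 6.57 (3.94 to 45.3, n = 123). A fold enrichment of 10 or more was reached by 28.1% (interval 18.1 to 40.8) of the former and 15.4% (10.1 to 22.9) of the latter. By run length as counted, height did not rise smoothly. The median was 7.88 for 12 bases (n = 31) and 13 bases (n = 18), and 5.91 for 14 bases (n = 3, with *Dedd2*, whose run is broken in the full probe). It was 14.1 for 15 bases (n = 4, of which 3 are related *Vmn1r* genes), and the only region with 16 bases, at *Zfp383*, had 47.3. These groups would change with the missing bases of probes 10 and 12 put back.

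The 3 regions counted with 14 bases were at *Prr14l* (probe 2, pileup 12), *Smyd3*, a lysine methyltransferase gene (probe 4, pileup 8), and *Dedd2*, a death effector domain gene (pileup 7). The run at *Dedd2* rests on letters of probe 10 that lack a base. The regions counted with 15 bases were at *Jmjd1c*, with a pileup of 15, and at 3 neighbouring genes of one family. *Vmn1r89* had a pileup of 32, *Vmn1r86* of 21 and *Vmn1r88* of 20, all with the same 15 bases of probe 4 between 9 and 18 bp from the summit. Their peaks also shared exact stretches of 30 bases with one another, so the 3 cannot be counted as independent, and how reads were shared between such copies is not given in the sources used here.

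Of the 123 regions without a run, 92 held not even 10 bases of an even probe in a row. Around the summits of these 92 (100 bp on either side), the best match without gaps to any even probe was better than that to any odd probe in 32, worse in 28 and equal in 32, with a median of 12 matching bases for both sets. Over all 180 regions the even probes matched better in 80 (44.4%), worse in 47 (26.1%) and equally in 53. The other even-only peaks without 10 bases in a row were close to this, with 37.9% better and 27.6% worse, whereas odd-only promoter peaks of that kind were matched better by odd probes in 56.6% and by even probes in 15.5%.

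In GC content these regions stood between the even-only peaks away from promoters and the odd-only promoter peaks. Over 500 bp around the summit the medians were 48.7%, 43.0% and 52.4% in this order: these regions, even-only peaks elsewhere and odd-only promoter peaks. The 44 shared even promoter peaks had a median of 47.1%. A CpG-rich stretch (GC of at least 50% and an observed over expected CpG of at least 0.6) was found in 27 regions (15%, interval 10.5 to 20.9). The share was 12.1% over all promoter windows and 26.5% in odd-only promoter peaks (23.9 to 29.2). In the 44 shared even promoter peaks it was 4.55% (1.26 to 15.1), and in the even-only peaks elsewhere 0.256%. Among the regions described here it was 12.3% with a run and 16.3% without, which counting error does not separate. Among the CpG-rich regions were *Prmt3* (GC 73.8%), *Rassf7* (68.4%), *Nucks1* (65.2%) and *Znhit2* (55.8%), where the first and the third held the shared word and the other 2 no run.

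Even-probe sites in CpG-rich promoter stretches were in an even peak in 7 of 36 cases (19.4%, interval 9.75 to 35.0), and other promoter sites in 52 of 618 (8.41%, 6.47 to 10.9). For odd probes and odd peaks the shares were 50% (39 of 78) and 29.1%. The order was alike in both libraries, and for the even probes the 2 intervals overlapped.

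Repeats made up a further group. A perfect repeat of CA or of GA (either strand, either letter first) over 30 bases was in 17 regions (9.44%, interval 5.98 to 14.6), against 1.73% of promoter windows, 2.76% of odd-only promoter peaks and 13.1% of even-only peaks elsewhere. The shared even promoter peaks had a close share, 4 of 44 (9.09%, 3.59 to 21.2). This search was chosen after stretches shared between peaks were seen. Of the 17, 3 also held a run of probe bases, *Dnase2b*, *Coq8a* and *Slc44a3*. The rest had none, among them *Serpina1b* and *Serpina1d*, 2 copies of the gene for the secreted protease inhibitor alpha-1 antitrypsin (pileup 9 and 8), *Cyp4f14*, a cytochrome P450 gene (7), *Zfp667* and *Smcp*. The pileup of the 17 ran from 6 to 31 with a median of 9. At least 50% of the bases were soft-masked as repeats in 19 of the 180 regions (10.6%).

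**Figure D5:**
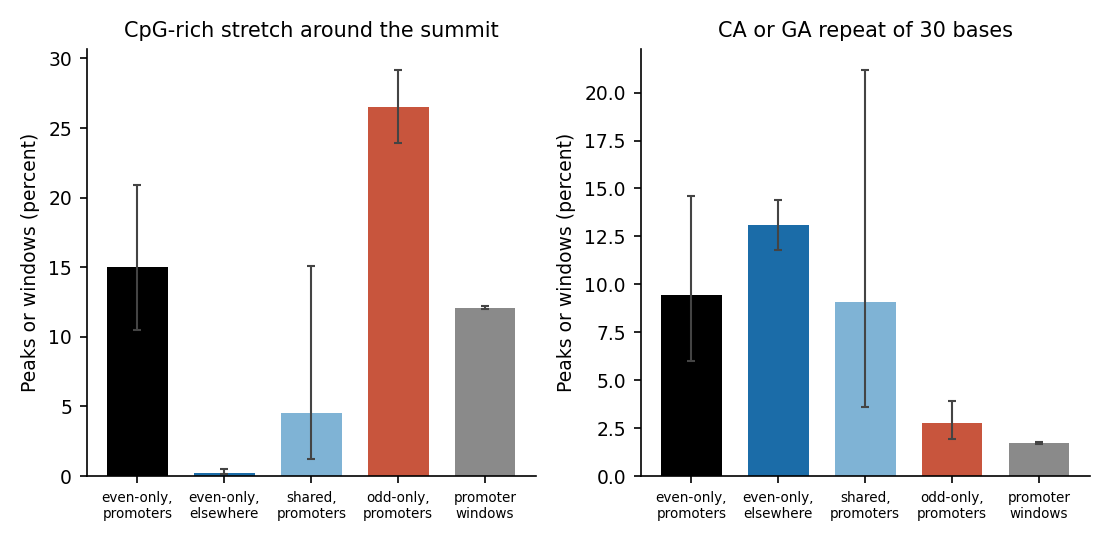
Percent of peaks or promoter windows with a CpG-rich stretch around the summit or window middle (left) and with a perfect CA or GA repeat of 30 bases (right), with 95% Wilson intervals. The even-only promoter peaks (black) hold 15% and 9.44%, next to 12.1% and 1.73% of promoter windows and 0.256% and 13.1% of the even-only peaks elsewhere.

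Of the 180 regions, 12 came from 3 stretches of 1 Mb in which both lists held at least 30 peaks. The same stretches held 121 of all 2914 even-only peaks on the autosomes, so the crowding was not particular to these regions. On chromosome 1 from 85 Mb the even list had 152 peaks and the odd list 133, and from 88 Mb 38 and 58. On chromosome 4 from 147 Mb they had 57 and 49. The median stretch of 1 Mb had 1 even and 5 odd peaks. The first held 7 regions, at *Sp140* and *Sp110*, nuclear body proteins, at *C130026I21Rik* and at *G530012D18Rik*, the second 4, at *Mroh2a* and *Trpm8*, and the third 1, at *Zfp982*. None of the 12 held an even-probe run, the pileup was 11 or lower in all of them, and each had an odd peak within 8232 bp. Without these 12 regions, the share with an even-probe run was 33.9%.

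The distance to the nearest odd peak is given without that of other promoter positions, which was not measured. The nearest odd peak was a median of 32943 bp from the region (range 50 to 337343), within 1000 bp in 9 regions and within 10000 bp in 42 (23.3%). The 9 included *Cyp2r1*, a vitamin D hydroxylase gene (395 bp), *Zfp513* (534 bp), *Dct* (328 bp) and *Cstf2t* (782 bp). These were called as separate peaks, and whether they are 1 signal cut in 2 cannot be told from the lists.

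In all, 175 of the 20807 protein-coding genes on the autosomes (0.841%) had one of these regions within 1000 bp of a start. At 4 regions starts of more than 1 gene were within reach, *Elmod3* and *Retsat* at one of them. Odd-only promoter peaks lay at 1107 genes (5.32%). Both kinds were found at 14 genes, which is 8% of the genes with an even-only and 1.26% of those with an odd-only promoter peak. They were *Auts2*, *Celf2*, *Cstf2t*, *Cyp2r1*, *Kazn*, *Mecom*, *Mroh2a*, *Msrb1*, *Myo15b*, *Naa15*, *Por*, *Sp110*, *Wipf3* and *Zfp513*. Of the 14, 5 (*Cstf2t*, *Cyp2r1*, *Mroh2a*, *Sp110* and *Zfp513*) had an odd peak within 1000 bp of the region.

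By gene lists of liver function the regions were few. Of 21 genes of lipid synthesis 1 had a region (*Gpam*), of 27 genes for secreted and metabolic hepatocyte products 1 (*Serpina1b*), and of 16 clock genes 1 (*Tef*, pileup 23, 5132 bp from an odd peak). None was found at the 14 genes of gluconeogenesis, the 18 of leptin receptor signalling, the 14 of fatty acid oxidation or the 20 hepatocyte transcription factors, and none at the markers of hepatocytes (5 genes), Kupffer cells (3), endothelial cells (3), stellate cells (3) and cholangiocytes (3). Beside the 0.841% of all genes, lists this short give counts that cannot be read further. The paper reports binding at *Lepr*, *Foxo1* and other genes of these lists, and took its pathway genes from overlapping peaks. The rule here left out overlapping peaks and summits beyond 1000 bp of a start, so these counts do not bear on that report. The peak lists hold no expression, so the cell type could not be checked from them.

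Gene families are set beside the 0.841% of all genes. At that share, the counts of 0 below cannot be read further. By gene family, zinc finger genes with the symbol Zfp had 8 of 385 (2.08%: *Zfp383*, *Zfp407*, *Zfp513*, *Zfp53*, *Zfp667*, *Zfp668*, *Zfp982* and *Zfp983*). Of these, *Zfp383* and *Zfp983* both held a run of probe 4 from its base 5, and *Zfp982* lay in the crowded stretch of chromosome 4 named above. Vomeronasal receptors had 5 of 329 (1.52%), of which the 3 neighbours with the 15-base run are one case. Olfactory receptors had 4 of 1128 (0.355%), solute carriers 4 of 358, and cytochromes P450 2 of 100 (*Cyp2r1* and *Cyp4f14*). Cytosolic ribosomal proteins (92 genes), mitochondrial ribosomal proteins (78), complex I subunits (44), proteasome subunits (49) and the replication histones with the symbol Hist (67) had 0. *H3f3b*, the gene of a replication-independent histone H3 outside that symbol family, had 1 (pileup 9, a 12-base run of probe 4). *Slc22a27* and *Slc22a29*, neighbouring copies of one transporter, both carried the shared word from base 1 of probe 2 in the same flanks, with pileups of 34 and 12.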

How the data were processed

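The authors pooled hepatocytes, fixed and sonicated them and sequenced 1 library per probe set. Per the labels, reads were aligned to mm10 with Novoalign 4.02.02 and SAMtools 1.9, and per the file headers peaks were called with MACS2 2.1.1.20160309 at a q-value of 0.05 without a control. The deposited signal is the pileup in reads at the summit, the deposited fold enrichment is a ratio to a single genome background, and the deposited −log10 q-value was used only as an alternative threshold. After duplicates were removed 10.7% and 11.4% of the reads were left, so heights are small numbers.

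Overlap meant 1 shared base. Starts came from GENCODE vM21 and DNA from GRCm38.p6, the build of the files. A damaged start in the even list was restored from end and length, in no member. Probe letters had been read from page images, so none is printed. Of 14 probes, 11 had an exact site in spliced *Gm19619*, and probes 5, 10 and 12 had none. Beside the RNA sequence printed in the paper, each of these lacks a base of a 20-base site. The search was not repeated with the missing bases put back. Runs were searched on both strands of the autosomes outside *Gm19619*, tested on simulated data. Python 3.11.15, numpy 2.4.6 and pandas 2.3.3 were used.

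The members and lists were chosen with earlier results of these data known. Named genes were the 10 tallest, the 10 with the longest runs, the closest to a start, the lowest, those in the lists and those at the 1000 bp limit; others were named after their values were seen. Alternatives were promoter width, transcripts, peak thresholds, repeats, run length, stretch, probes and the CpG definition.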

Additional observations from a re-analysis of the deposited data

How the results depend on the processing

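Of 72 alternative values, 48 stayed within the interval of the value reported or, for the number of regions, within 1.5 times of it. The number of regions (180) was 106 with summits within 500 bp, 404 within 3000 bp, 107 with RefSeq curated transcripts, 119 with basic transcripts, 35 at a fold enrichment of at least 10 and 89 by the 5′ end of any gene, in place of the nearest transcript's gene. The share with an even-probe run (31.7%) was 45.7% at a fold enrichment of at least 10, 48.9% with runs of 10 bases, 4.44% with runs of 14, 21.7% within 100 bp of the summit and 8.89% with probes exact in the DNA of *Gm19619*, which leaves out probes 2, 10 and 12. With probes exact in the spliced RNA it was 28.3%. The share with an odd-probe run was 6.67% with runs of 10 bases. The median fold enrichment (7.23) was 13.8 at a fold enrichment of at least 10 and 8.54 at a −log10 q of at least 5. The CpG-rich share (15%) was 21.7% within 500 bp, 6.93% within 3000 bp, 25.2% with RefSeq and 22.7% with basic transcripts, 22.9% at a fold enrichment of at least 10, 27.0% by the 5′ end of any gene and 7.78% under the stricter definition. The share of promoter sites in a peak (9.02%) was 13.5% within 500 bp, 6.77% within 3000 bp and 2.60% in peaks of fold enrichment of at least 10. The alternatives by the gene's 5′ end, without the dense stretches and by spliced probes were chosen after seeing the data. No paired analysis was possible because each probe set has 1 library. With few reads per peak and 1 library a set, a peak that was not called is no evidence of absence.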
